A study of Homo sapiens with 6 samples.

Results

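Heat shock proteins and J-domain chaperones were followed at the RNA level in RBE, a long-established human cell line derived from an intrahepatic bile duct cancer (cholangiocarcinoma). The set held the genes whose symbols begin with HSPA, HSPB, HSPD, HSPE, HSPH, HSP90, DNAJA, DNAJB, DNAJC or CCT and a digit, plus HSF1, HSF2, BAG3 and TCP1. It came to 81 of the 16200 genes in the deposited table. Poly(A)-enriched RNA was sequenced from RBE cells labelled sgKCNQ3, which commonly stands for cells given a single guide RNA against KCNQ3 (3 libraries), and from RBE cells labelled NC, the group they are set against (3 libraries). KCNQ3 is a subunit of voltage-gated potassium channels, and the study asked which genes respond to its loss, with ERK1/2 signalling in view. The sources used here do not give the nuclease, the guide's position, the number of clones or the meaning of NC. Both groups share the line, and no drug, heat or other stress is named for either. The labels do not say that the libraries came from separate cultures, so p-values measure the spread between these libraries, which may be technical.

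Chaperones hold unfolded or newly made proteins until they fold, and each compartment of the cell has its own set. HSP70 proteins bind exposed hydrophobic stretches in a cycle driven by ATP. J-domain proteins bring clients to HSP70 and start ATP hydrolysis, and HSP110 proteins act as nucleotide exchange factors that release the client. HSP90 proteins finish the folding of kinases and hormone receptors, and the ring-shaped chaperonin TRiC folds actin and tubulin. HSF1 is the main transcription factor of the cytosolic heat shock response, whereas the endoplasmic reticulum (ER) set is controlled by the unfolded protein response.

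Library totals lay between 15601283 and 16089500 estimated counts. KCNQ3 itself, the targeted gene, fell to 12.99 ± 1.0 CPM in sgKCNQ3 cells, against 16.3 ± 0.254 CPM in NC cells (SD, n = 3 each; log2 fold change of sgKCNQ3 over NC -0.33, edgeR quasi-likelihood adjusted p 0.00446). CPM is a gene's share of its library's counts after TMM scaling. TPM values are those of the authors, which account for transcript length and were not TMM scaled. Levels of different genes are compared in TPM, and changes in TPM and in CPM can therefore differ. The chi-square per degree of freedom between library pairs was 1.70 to 4.04 within sgKCNQ3 and 1.62 to 2.86 within NC, where sampling noise alone gives about 1, and sgKCNQ3 replicate 2 lay farthest from its own group. Biliary markers were summed to 4854 to 4964 TPM in sgKCNQ3 cells and 4162 to 4251 TPM in NC cells. On log2(TPM + 1) the median tested gene was itself 0.065 higher in sgKCNQ3 cells. Called higher were 5 of the 8 (KRT8, KRT18, SOX9, ANXA4 and CD24), against 14.0% of all tested genes. KRT7, KRT19 and EPCAM were not called. Of 7 markers of other cell types, PTPRC, PECAM1, VWF, COL1A2 and ALB did not pass the filter on low counts. CD68 was lower (log2 fold change -0.27, edgeR adjusted p 1.06e-04), COL1A1 was not called, and the list summed to 81.7 to 89.0 TPM in sgKCNQ3 cells and 95.6 to 102 TPM in NC cells. Nearly all of that sum was CD68, at a mean of 84.2 TPM in sgKCNQ3 cells and 95.9 TPM in NC cells. The part of these differences in the chaperone results was not tested.

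Of the 81 genes, 73 passed the filter and were tested. A gene was called when its edgeR adjusted p, taken over the 12565 tested genes, was below 0.05. Of the 73, 25 (34.2%) were called, against 29.1% of all tested genes, so the share is near that of the table as a whole. In sgKCNQ3 cells 14 of the 73 were called higher and 11 of the 73 lower. Of the 12565 tested genes, 1763 (14.0%) were called higher and 1895 (15.1%) lower. The median log2 fold change was -0.03 over the 73 and -0.007 over all tested genes. The groups did not overlap for 31 of the 73 chaperone genes, with 16 wholly above NC and 15 wholly below. Of the 12565 tested genes, 5236 (41.7%) did not overlap, with 2562 (20.4%) above and 2674 (21.3%) below. In bulk RNA of this kind, fewer cells that express a gene and less RNA per cell cannot be told apart.

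**Figure D1:**
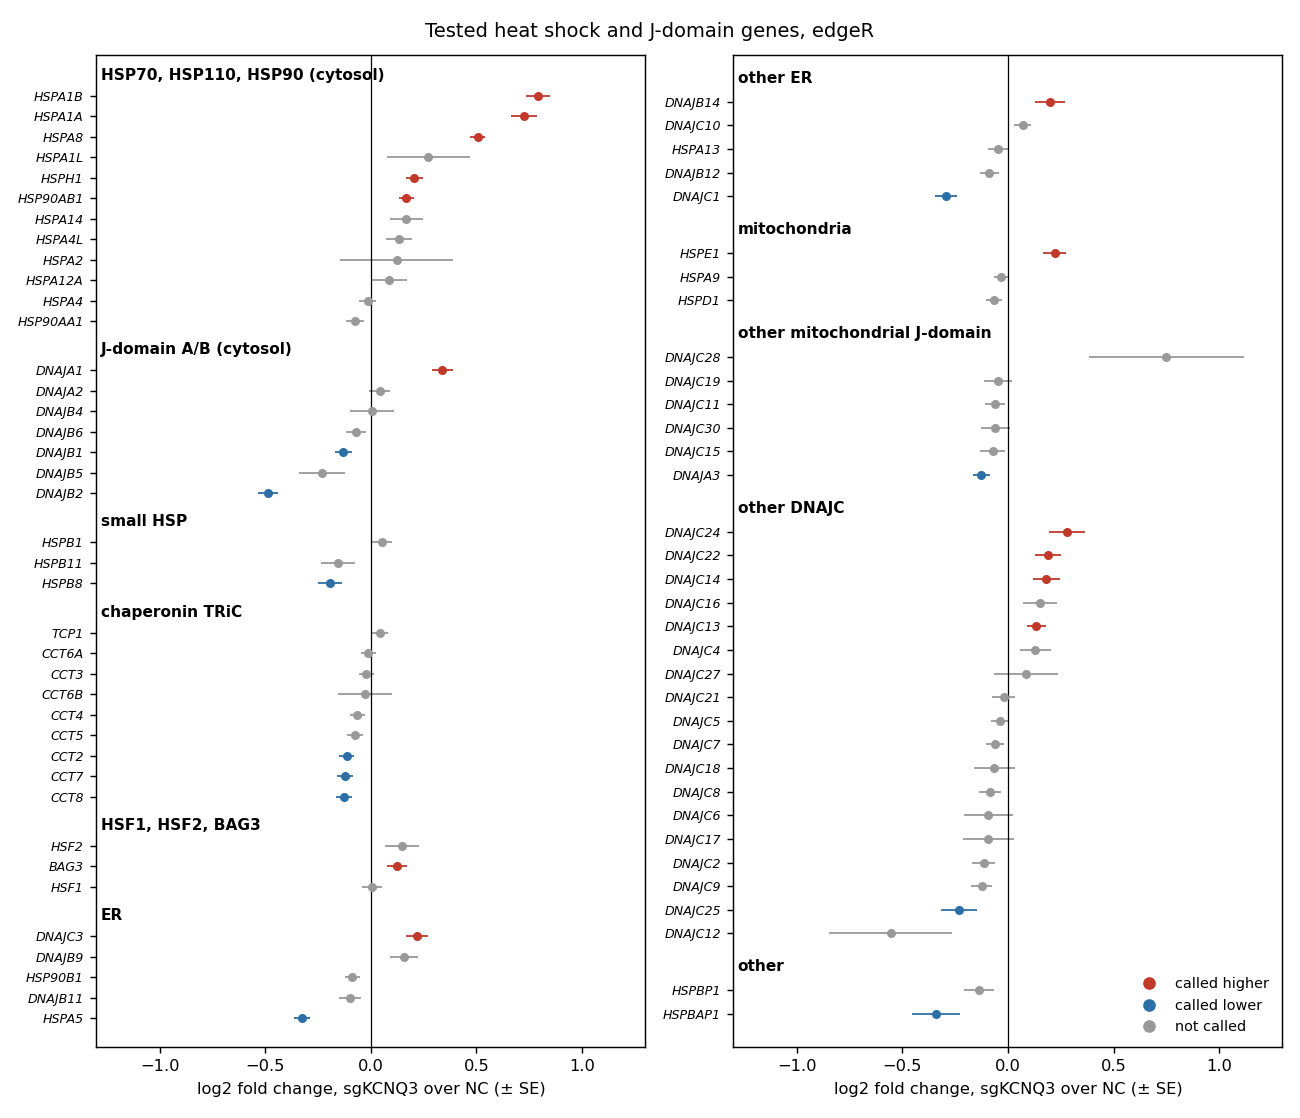
Log2 fold change (sgKCNQ3 over NC, x axis) of the 73 tested chaperone genes, grouped by class down the page, with bars for the SE of the edgeR fit. The cytosolic HSP70, HSP110 and HSP90 genes run from -0.08 to 0.79 with 5 called higher, while the chaperonin subunits lie between -0.13 and 0.04.

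Of the 25 calls, 10 stood under all 16 alternative analyses, which changed the scaling, the test, the filter or the libraries used. The 7 higher ones were HSPA1A, HSPA1B, HSPA8, HSPH1, HSP90AB1, DNAJA1 and the mitochondrial HSPE1. The 3 lower ones were HSPA5, DNAJC1 and DNAJB2. The other 15 calls were lost under at least 1 alternative, and where leaving out a library ended a call that library is named with it. Without sgKCNQ3 replicate 2, the library farthest from its group, the log2 fold changes were 0.75 for HSPA1A and HSPA1B summed, 0.47 for HSPA8, 0.14 for HSP90AB1 and -0.36 for HSPA5, all still called by edgeR.

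**Figure D2:**
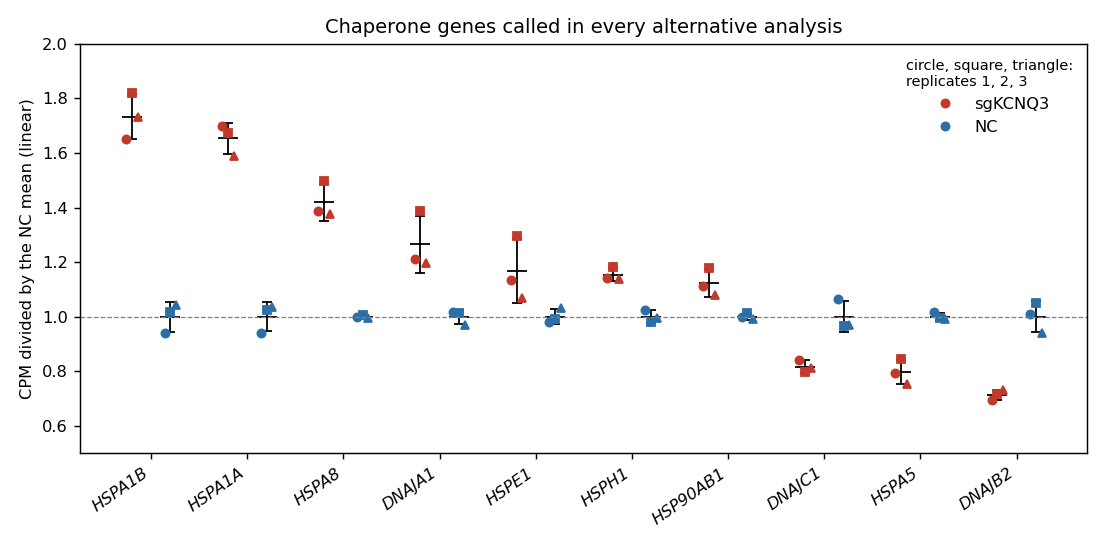
CPM of the stably called genes in each library relative to the NC mean (dashed line), with sgKCNQ3 left of NC, symbols for replicates 1 to 3 and bars for the SD. For each gene, all 3 sgKCNQ3 libraries lie on the same side of all 3 NC libraries, as for 41.7% of all tested genes. The genes were picked by their calls on these same libraries, so separation adds no support.

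The cytosolic HSP70 and HSP90 families rose in part. Of 13 genes of the cytosolic HSP70, HSP110 and HSP90 class 12 were tested. By edgeR 5 of them (41.7%) were called higher and none lower, against 14.0% and 15.1% of all tested genes. HSPA1A and HSPA1B count as 2 of the 5. At an unadjusted p under 0.05, edgeR, DESeq2 and limma-voom also had 0 lower. At that threshold edgeR had 1 lower without a filter, 1 without sgKCNQ3 replicate 2 and 2 with length and GC trends removed. The median log2 fold change of the class was 0.17. HSPA1A and HSPA1B encode the stress-inducible HSP70 and are near-identical neighbours on the plus strand of chromosome 6 (31815464 to 31817946 and 31827735 to 31830255, GRCh38, GENCODE release 29). Reads of the pair can be split between them, so they were summed. All counts of called genes given here take the pair as separate genes, although their estimates are not independent. The sum was 102, 108 and 102 CPM in sgKCNQ3 replicates 1 to 3 and 57.5, 62.5 and 63.7 CPM in NC replicates 1 to 3. Every sgKCNQ3 library lay far above every NC library. The sum rose by 70.1% (log2 fold change 0.77, SE 0.0481, edgeR adjusted p 1.95e-11). Kept apart, HSPA1A had a log2 fold change of 0.73 and HSPA1B of 0.79.

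HSPA8, the constitutive HSC70 that serves most cytosolic folding, lies on the minus strand of chromosome 11 (123057489 to 123063230). In TPM it stood at 552, 581 and 552 in sgKCNQ3 cells and at 370, 374 and 374 in NC cells. The NC libraries were almost identical, and the lowest sgKCNQ3 library was well above them. Its CPM rose by 42.0% (log2 fold change 0.51, SE 0.0374, edgeR adjusted p 2.70e-10). As a level per length, HSPA8 far exceeded the inducible pair, which averaged 76.2 ± 0.930 TPM in sgKCNQ3 cells and 42.2 ± 2.48 TPM in NC cells (SD, n = 3 each). The inducible pair made up 12.0%, 11.7% and 12.1% of the summed TPM of HSPA8, HSPA1A and HSPA1B in sgKCNQ3 replicates 1 to 3, against 9.63%, 10.3% and 10.6% in NC replicates 1 to 3. That share, chosen after the values were seen, was higher in every sgKCNQ3 library by a small margin.

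Heat shock elements, inverted repeats of nGAAn, are the known binding sites of HSF1. Promoter sequences are shown for the 4 genes called higher that held a match to the element. Each is the 250 bases before the RefSeq start (GRCh38.p14), read 5′ to 3′ on the gene's strand, with matches to GAANNTTC or TTCNNGAA in capitals.
HSPA1A (chr6:31815293-31815542, plus strand): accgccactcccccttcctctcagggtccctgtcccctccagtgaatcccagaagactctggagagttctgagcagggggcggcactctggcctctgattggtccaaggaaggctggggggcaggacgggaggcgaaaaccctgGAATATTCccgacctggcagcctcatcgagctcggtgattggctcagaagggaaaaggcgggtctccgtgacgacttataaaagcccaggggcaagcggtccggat
HSPA1B (chr6:31827488-31827737, plus strand): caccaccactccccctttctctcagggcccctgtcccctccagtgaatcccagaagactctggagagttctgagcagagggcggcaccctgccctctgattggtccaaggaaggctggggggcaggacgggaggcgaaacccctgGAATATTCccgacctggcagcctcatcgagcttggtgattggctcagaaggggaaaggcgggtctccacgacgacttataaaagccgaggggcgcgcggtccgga
HSPA8 (chr11:123062137-123062386, minus strand): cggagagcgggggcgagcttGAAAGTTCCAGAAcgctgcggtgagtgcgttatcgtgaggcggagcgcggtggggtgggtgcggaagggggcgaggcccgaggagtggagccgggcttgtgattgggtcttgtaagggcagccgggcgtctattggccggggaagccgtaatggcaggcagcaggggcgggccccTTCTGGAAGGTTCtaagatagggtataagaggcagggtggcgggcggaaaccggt
DNAJA1 (chr9:33025023-33025272, plus strand): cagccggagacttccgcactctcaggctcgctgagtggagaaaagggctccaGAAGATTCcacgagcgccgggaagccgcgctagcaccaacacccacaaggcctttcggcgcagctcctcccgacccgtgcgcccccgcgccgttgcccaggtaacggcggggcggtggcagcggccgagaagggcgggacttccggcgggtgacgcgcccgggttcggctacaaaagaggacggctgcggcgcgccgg
In the HSPA8 promoter, overlapping matches joined into a 3-unit element (GAANNTTC extended by NNGAA, or TTCNNGAA extended by NNTTC) near each end of the window, beginning 230 and 55 bases before the start. HSPA1A and HSPA1B shared a 2-unit match beginning 106 and 105 bases before the start, and 235 of 249 aligned bases of the pair were identical (94.4%). DNAJA1 held a 2-unit match 198 bases before its start. No match was found in the promoters of HSPH1, HSP90AB1 and HSPE1, also called higher, or of DNAJB1 and DNAJB2, called lower.

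RefSeq promoters were matched for 73 of the 81 genes. The 2-unit form, searched on both strands, was present in 13 of them (17.8%), against 11.7% of all 27305 promoters and 8.49% of the 10218 promoters of tested genes. It was found in 4 of 12 promoters of genes called higher and 1 of 10 of genes called lower (HSPB8). Of the promoters of genes not called, 6 of 45 held it. The 4 are those printed here, of which HSPA1A and HSPA1B are near-identical. The 3-unit form, which contains the 2-unit form, was in the HSPA8, DNAJB6 and HSPA6 promoters and in 0.439% of all promoters. CCAAT was in 30 of the 73 (41.1%) and in 33.0% of all promoters. These are matches of letters in a short window and not measured binding.

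HSPH1 encodes the cytosolic HSP110 that exchanges nucleotide on HSP70. It was at 184, 191 and 184 CPM in sgKCNQ3 cells and at 165, 158 and 161 CPM in NC cells. The groups were separate by more than the range within either. HSPH1 rose by 15.4% (log2 fold change 0.21, SE 0.0390, edgeR adjusted p 3.03e-04). With per-library trends over GC content and transcript length removed, its log2 fold change shrank to 0.12 (edgeR adjusted p 0.00885).

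Of the cytosolic HSP90 paralogs HSP90AB1 was called and HSP90AA1 was not. HSP90AB1, the constitutive beta form, was at 2293, 2429 and 2225 CPM in sgKCNQ3 cells and at 2057, 2086 and 2040.0 CPM in NC cells, without overlap. It rose by 12.4% (log2 fold change 0.17, SE 0.0359, edgeR adjusted p 9.77e-04). HSP90AA1, the inducible alpha form, was at 1415, 1528 and 1308 CPM in sgKCNQ3 cells, on both sides of the 1528, 1471 and 1480 CPM of NC cells. HSP90AA1 was not called (log2 fold change -0.08, edgeR adjusted p 0.198), but without sgKCNQ3 replicate 2, its highest library, it was called lower (-0.13, adjusted p 0.00278). The ratio of HSP90AB1 to HSP90AA1 in TPM, chosen after the values were seen, was 2.10, 2.06 and 2.21 in sgKCNQ3 cells and 1.75, 1.84 and 1.79 in NC cells. All sgKCNQ3 ratios were above all NC ratios, and the difference between the paralogs was not tested.

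The other members of the class were not called. HSPA4, an HSP110 relative and the next most abundant uncalled one in CPM, averaged 259.9 ± 11.9 CPM in sgKCNQ3 cells and 263 ± 2.13 CPM in NC cells (SD, n = 3 each; log2 fold change -0.02, edgeR adjusted p 0.794). HSPA6, a strictly stress-inducible HSP70 of human cells, had 8, 7 and 8 counts in sgKCNQ3 cells and 11, 7 and 10 counts in NC cells and did not pass the filter. HSPA6 lay close to the detection limit in both groups, whereas its relatives HSPA1A and HSPA1B were well expressed in both.

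Of the 8 A and B type J-domain partners of cytosolic HSP70, 7 were tested, with 1 called higher, 2 lower and 4 not called. Their median log2 fold change was -0.07, and 42.9% were called, against 29.1% of all tested genes. DNAJA1, a general HSP70 partner on the plus strand of chromosome 9 (33025211 to 33039907, GRCh38), was at 158, 180.3 and 156 CPM in sgKCNQ3 cells and at 132, 132 and 126 CPM in NC cells. The sgKCNQ3 group lay above, with replicate 2 highest. DNAJA1 rose by 26.5% (log2 fold change 0.34, SE 0.0487, edgeR adjusted p 1.39e-05), and by 0.28 on the log2 scale without sgKCNQ3 replicate 2.

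DNAJB2 (HSJ1) is a J-domain protein with ubiquitin-interacting motifs, best known from neurons, where it directs clients to the proteasome. Its gene lies on the plus strand of chromosome 2 (219279267 to 219286900, GRCh38). DNAJB2 was at 70.6, 72.7 and 74.4 CPM in sgKCNQ3 cells and at 103, 107 and 95.6 CPM in NC cells. The gap between the groups was wider than the spread within either. DNAJB2 fell by 28.7% (log2 fold change -0.49, SE 0.0479, edgeR adjusted p 3.42e-08). The ratio of DNAJA1 to DNAJB2 in TPM, chosen after the values were seen, was 2.09, 2.34 and 1.93 in sgKCNQ3 cells and 1.19, 1.16 and 1.21 in NC cells, with no overlap.

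DNAJB1 (HSP40), the stress-inducible partner of HSPA1A, was called in the other direction. It was at 194, 188 and 181 CPM in sgKCNQ3 cells and at 203, 207 and 206 CPM in NC cells. The groups were separate, with sgKCNQ3 lower. The log2 fold change of DNAJB1 was -0.13 (SE 0.0387, edgeR adjusted p 0.0130), and the call was lost in 6 of 16 alternatives, among them those without NC replicate 3 (edgeR adjusted p 0.0547) and without sgKCNQ3 replicate 3 (0.0931). Exons of DNAJB1 overlap those of TECR on the opposite strand, and the sources used here do not say whether the counting used strand. DNAJB6, which keeps aggregation-prone proteins soluble, and DNAJA2 were the most abundant uncalled genes of this class (log2 fold changes -0.07 and 0.04). Without sgKCNQ3 replicate 2, DNAJB6 was called lower (-0.12, edgeR adjusted p 0.0184).

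Of the 3 regulators HSF1, HSF2 and BAG3, 1 was called (33.3%, against 29.1% of all tested genes), by a small margin. HSF1 was at 99.2, 110.3 and 106 CPM in sgKCNQ3 cells and at 101, 108 and 106 CPM in NC cells. These values overlapped almost fully (log2 fold change 0.01, SE 0.0464, edgeR adjusted p 0.927). HSF1 is activated as a protein, which RNA counts do not show, and its exons overlap those of DGAT1 on the opposite strand. HSF2, a second member of the HSF family, was not called (0.15, edgeR adjusted p 0.170) except on TPM (0.0418). BAG3, an HSP70 co-chaperone that leads clients to autophagy, was at 77.2, 73.3 and 77.5 CPM in sgKCNQ3 cells and at 68.0, 71.3 and 69.7 CPM in NC cells. BAG3 was just past the threshold (0.13, edgeR adjusted p 0.0451) and was lost in 7 alternatives. The p was 0.147, 0.115, 0.133 and 0.115 without NC replicate 1, NC replicate 3, sgKCNQ3 replicate 1 and sgKCNQ3 replicate 3.

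Small heat shock proteins hold unfolded clients without ATP, and of 5 genes 3 were tested, with 1 called lower. That is 33.3% of the 3, against 15.1% of all tested genes called lower. HSPB1 (HSP27), by far the most abundant, was at 92.7, 86.4 and 91.7 CPM in sgKCNQ3 cells and at 83.9, 92.2 and 85.1 CPM in NC cells. The groups overlapped (log2 fold change 0.05, edgeR adjusted p 0.439), and HSPB1 was called higher only once GC and length trends were removed (0.16, adjusted p 0.00422, or 0.00748 with the replicate number as a block as well). HSPB8, the partner of BAG3 in selective autophagy, was at 38.5, 35.3 and 38.9 CPM in sgKCNQ3 cells and at 41.9, 44.1 and 42.8 CPM in NC cells. It was called lower (-0.19, edgeR adjusted p 0.0135), a call lost without NC replicate 2 (0.0530) and without sgKCNQ3 replicate 2 (0.0792). HSPB11 was not called (-0.16, adjusted p 0.155), and its product is a component of intraflagellar transport.

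All 9 chaperonin genes were tested, and 3 (33.3%) were called lower and none higher by edgeR. Over all tested genes 29.1% were called in either direction and 15.1% lower. At an unadjusted p under 0.05, edgeR, DESeq2 and limma-voom each had 0 higher and 3 lower. Library size alone had 1 higher and 3 lower at that threshold, and limma-trend on TPM 1 higher and 0 lower. The median log2 fold change was -0.06. CCT2 (log2 fold change -0.11, edgeR adjusted p 0.0217), CCT7 (-0.12, 0.0153) and CCT8 (-0.13, 0.0182) are subunits of the same ring complex. CCT8, the largest change of the 3, was at 337, 366 and 333 CPM in sgKCNQ3 cells and at 384, 366 and 381 CPM in NC cells, so that the groups touched. All 3 were lost with library size alone and on TPM. They were lost without sgKCNQ3 replicate 3 (edgeR adjusted p 0.122, 0.0810 and 0.102), without sgKCNQ3 replicate 1 (0.0687, 0.103 and 0.114) and without NC replicate 1 (0.101, 0.0541 and 0.0766), and CCT2 and CCT8 also without NC replicate 3 (0.0652 and 0.0825). The others were CCT3 (-0.02), CCT4 (-0.06), CCT5 (-0.07), CCT6A (-0.01), the weakly expressed CCT6B (-0.03) and TCP1 (0.04), none of them called. Alternatives called TCP1 higher on TPM (0.13, limma adjusted p 0.0358) and CCT5 lower once GC and length trends were removed (-0.09, edgeR adjusted p 0.0433), where CCT7 lost its call (-0.08, 0.0849). Apart from CCT6B, at 5.85 TPM in sgKCNQ3 cells and 5.68 TPM in NC cells, mean levels of the subunits ran from 223 to 545 TPM in sgKCNQ3 cells and from 221 to 561 TPM in NC cells.

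**Figure D3:**
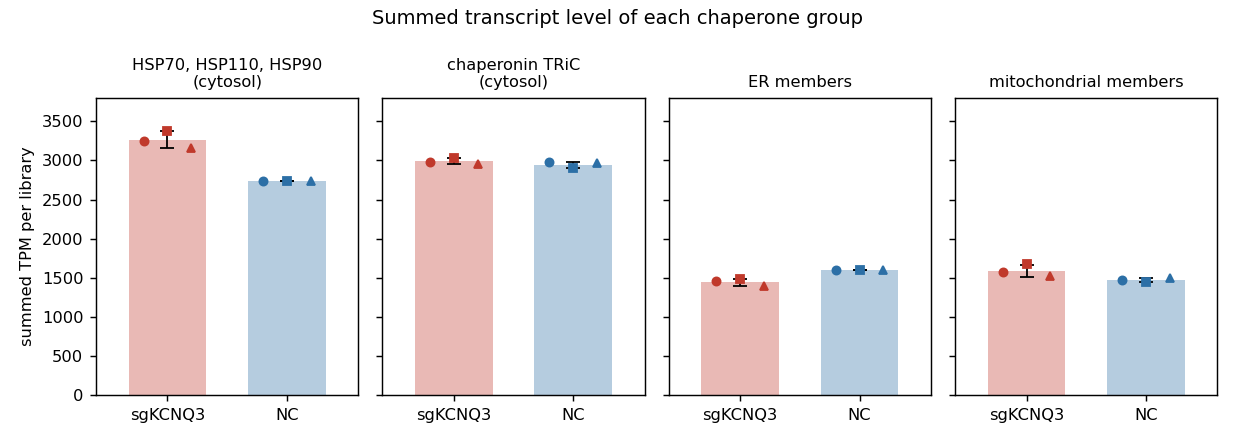
Summed TPM (y axis) of each compartment's chaperone genes per library, with sgKCNQ3 left of NC, symbols for replicates 1 to 3 and bars for the SD. The HSP70, HSP110 and HSP90 sum is higher and the ER sum lower in every sgKCNQ3 library, while the TRiC sums overlap.

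Summed levels put these changes in proportion. Cytosolic HSP70, HSP110 and HSP90 genes together came to 3255, 3377 and 3158 TPM in sgKCNQ3 cells and 2735, 2742 and 2738 TPM in NC cells, a ratio of 1.19. TRiC subunits came to 2979, 3033 and 2955 TPM in sgKCNQ3 cells and 2976, 2899.7 and 2962 TPM in NC cells, which overlapped (ratio 1.01). On the TPM scale the median gene of the table was itself 0.065 higher in sgKCNQ3 cells in log2 units, and on FPKM the ratios of these sums were 1.14 and 0.974.

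In the ER, the most abundant chaperone fell. Of the 5 ER genes HSPA5, HSP90B1, DNAJB9, DNAJB11 and DNAJC3, 1 was called lower and 1 higher, with a median log2 fold change of -0.09. These calls were 40.0% of the 5, against 29.1% of all tested genes. HSPA5 (BiP), the HSP70 of the ER lumen and a standard target of the unfolded protein response, lies on the minus strand of chromosome 9 (125234853 to 125241330, GRCh38). HSPA5 was at 2087, 2217 and 1979.7 CPM in sgKCNQ3 cells and at 2671, 2613 and 2602 CPM in NC cells. The highest sgKCNQ3 library lay well under the lowest NC library. HSPA5 fell by 20.3% (log2 fold change -0.33, SE 0.0378, edgeR adjusted p 4.65e-07), and its log2 fold change ran from -0.36 to -0.24 over the alternatives. The promoter is shown for contrast with the cytosolic genes, with a match to the ER stress element (CCAAT, 9 free bases, then CCACG) in capitals.
HSPA5 (chr9:125241344-125241593, minus strand): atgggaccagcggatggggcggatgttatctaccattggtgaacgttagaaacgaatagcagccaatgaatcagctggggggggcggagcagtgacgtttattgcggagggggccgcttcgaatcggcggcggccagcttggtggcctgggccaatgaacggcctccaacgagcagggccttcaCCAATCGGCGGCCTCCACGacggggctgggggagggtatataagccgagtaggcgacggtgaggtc
That motif, added after the values were seen, was also in the HSP90B1 promoter and in 22 of 27305 promoters (0.0806%). Neither it nor the heat shock element was measured as bound here.

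HSP90B1 (GRP94), the ER HSP90, was at 666, 675 and 633 CPM in sgKCNQ3 cells and at 685, 712 and 700.0 CPM in NC cells. It lay lower in every sgKCNQ3 library by a small margin and was not called (log2 fold change -0.09, edgeR adjusted p 0.0702). HSP90B1 was called without sgKCNQ3 replicate 2 (-0.10, adjusted p 0.0217) and once GC and length trends were removed (-0.10, 0.0286). With library size alone its log2 fold change was -0.05 (edgeR adjusted p 0.283), and on log2(TPM + 1) it was 0.00 (limma adjusted p 0.991). DNAJB9 (ERdj4), a J-domain partner that restrains the stress sensor IRE1, was not called (0.16, adjusted p 0.0747) except with library size alone (0.0281), on TPM (0.0137) or without sgKCNQ3 replicate 3 (0.0346). DNAJB11 (ERdj3), which brings nascent chains to HSPA5, was not called either (-0.10, adjusted p 0.163).

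DNAJC3 (p58IPK), an ER-lumen co-chaperone of HSPA5, was at 57.1, 55.8 and 56.8 CPM in sgKCNQ3 cells and at 50.5, 47.3 and 48.1 CPM in NC cells. The groups were clearly apart. DNAJC3 rose by 16.3% (log2 fold change 0.22, SE 0.0515, edgeR adjusted p 0.00236), but was not called once GC and length trends were removed (0.12, adjusted p 0.0530). The 5 ER genes summed to 1454, 1481 and 1391 TPM in sgKCNQ3 cells and 1601, 1599.7 and 1601 TPM in NC cells (ratio 0.901). Without HSPA5 the TPM sums overlapped (ratio 1.01), whereas the FPKM sums without it stayed lower in every sgKCNQ3 library by a small margin (ratio 0.972). The FPKM totals over all genes were themselves lower in sgKCNQ3 libraries (630332 to 642515) than in NC libraries (656809 to 668732). HSPA8 relative to HSPA5 in TPM, chosen after the values were seen, was 0.599, 0.609 and 0.627 in sgKCNQ3 cells and 0.338, 0.348 and 0.346 in NC cells.

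Of 5 further genes of the ER lumen or membrane, DNAJC1 fell. DNAJC1 (ERdj1) is a membrane J-domain protein near the ribosome exit and the ER HSP70. It was at 60.2, 56.8 and 57.9 CPM in sgKCNQ3 cells and at 76.2, 69.0 and 69.4 CPM in NC cells, with no overlap. DNAJC1 fell by 18.4% (log2 fold change -0.29, SE 0.0513, edgeR adjusted p 1.26e-04). DNAJB14, a J-domain protein of the ER membrane, was called higher (0.20, edgeR adjusted p 0.0415) although its groups overlapped. It was not called under 7 of 16 alternatives, with an adjusted p of 0.156, 0.192, 0.130 and 0.0511 without NC replicate 2, NC replicate 3, sgKCNQ3 replicate 1 and sgKCNQ3 replicate 2. HSPA13 and DNAJC10, the most abundant uncalled genes of this class, had log2 fold changes of -0.05 and 0.07, and HSPA13 was called lower once GC and length trends were removed (-0.11, edgeR adjusted p 0.0356).

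Of the 3 mitochondrial chaperone genes HSPE1, HSPD1 and HSPA9, 1 was called, HSPE1, and their median log2 fold change was -0.03. The called share was 33.3%, against 29.1% of all tested genes. HSPE1 (HSP10) is the lid of the mitochondrial chaperonin that HSPD1 (HSP60) forms. HSPE1 was at 97.1, 111 and 91.7 CPM in sgKCNQ3 cells and at 84.0, 84.8 and 88.3 CPM in NC cells. Every sgKCNQ3 library was above NC, replicate 3 only narrowly. HSPE1 rose by 16.6% (log2 fold change 0.22, SE 0.0553, edgeR adjusted p 0.00421). Without sgKCNQ3 replicate 2, its highest library, its log2 fold change was 0.15 (adjusted p 0.0146).

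HSPD1 was at 741, 784 and 725 CPM in sgKCNQ3 cells and at 795, 776 and 784 CPM in NC cells, which overlapped (log2 fold change -0.07, edgeR adjusted p 0.177). It was called lower without sgKCNQ3 replicate 2 (-0.09, adjusted p 0.0270). HSPE1 and HSPD1 lie head to head on chromosome 2, with RefSeq starts 105 bases apart on opposite strands, and their annotated exons overlap. The ratio of HSPE1 to HSPD1 in TPM, chosen after the values were seen, was 0.942, 1.03 and 0.918 in sgKCNQ3 cells and 0.819, 0.803 and 0.838 in NC cells. HSPE1 also shares exons with the readthrough HSPE1-MOB4. The counts of both together were 1555, 1758 and 1472 in sgKCNQ3 cells and 1308, 1343 and 1381 in NC cells, so the groups stayed apart however reads were shared between these 2.

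HSPA9 (mortalin), the HSP70 of the mitochondrial matrix and its import motor, was at 1002, 1055 and 963 CPM in sgKCNQ3 cells and at 1008, 1035 and 1041 CPM in NC cells. The groups overlapped (log2 fold change -0.03, SE 0.0369, edgeR adjusted p 0.570). The 3 genes HSPA9, HSPD1 and HSPE1 summed to 1568, 1669 and 1526 TPM in sgKCNQ3 cells and 1468, 1447 and 1493 TPM in NC cells (ratio 1.08, and 1.04 on FPKM, where the groups overlapped). Of 6 mitochondrial J-domain genes 16.7% were called, against 29.1% of all tested genes. DNAJA3 (Tid1), a partner of HSPA9, was called lower (log2 fold change -0.13, edgeR adjusted p 0.0177). That call was lost in 5 alternatives, among them those without NC replicate 3 (0.0877) and without sgKCNQ3 replicate 3 (0.0804). DNAJC11 and DNAJC15 were the most abundant uncalled genes of this class in CPM (-0.06 and -0.07), and DNAJC15 was called lower without sgKCNQ3 replicate 2 (-0.15, adjusted p 0.0397) and once GC and length trends were removed (-0.22, 0.00895).

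The remaining DNAJC genes, whose proteins share a J-domain and little else, gave small changes. Of 20 genes 18 were tested, with 4 called higher and 1 lower and a median log2 fold change of -0.05. The called share was 27.8%, near the 29.1% of all tested genes. DNAJC24, required for diphthamide synthesis on elongation factor eEF2, was at 16.3, 16.9 and 16.4 CPM in sgKCNQ3 cells and at 15.0, 12.9 and 12.8 CPM in NC cells (log2 fold change 0.28, edgeR adjusted p 0.0140). The other higher calls were DNAJC22 (0.19, adjusted p 0.0217), DNAJC14 (0.18, 0.0353, with overlapping groups) and DNAJC13 (0.13, 0.0294), an endosomal protein. DNAJC25 was called lower (-0.23, adjusted p 0.0403), and its counts summed with the readthrough DNAJC25-GNG10 were 200, 217 and 207 in sgKCNQ3 cells and 242, 236 and 239 in NC cells. DNAJC5 (cysteine string protein) and DNAJC7, the most abundant uncalled genes in CPM, had log2 fold changes of -0.04 and -0.06.

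Each of these 5 calls was lost on leaving out any 1 of 2 or more libraries. Calls over all tested genes also fell in these tests, from 3658 to between 2687 and 3471. DNAJC24 was lost without NC replicate 2 or NC replicate 3 (edgeR adjusted p 0.0610 and 0.0774). DNAJC22 was lost without NC replicate 2, NC replicate 3, sgKCNQ3 replicate 2 or sgKCNQ3 replicate 3 (0.0811, 0.0654, 0.0792 and 0.0501). DNAJC14 was lost without NC replicate 1, NC replicate 3 or sgKCNQ3 replicate 2 (0.192, 0.0677 and 0.151), and its exons overlap those of ORMDL2. DNAJC13 was lost without NC replicates 1, 2 or 3 or sgKCNQ3 replicate 3 in turn (0.0526 to 0.0865), and its log2 fold change was 0.00 with length and GC trends removed. DNAJC25 was lost without NC replicates 1, 2 or 3 or sgKCNQ3 replicates 1 or 3 in turn (0.0524 to 0.165).

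**Figure D4:**
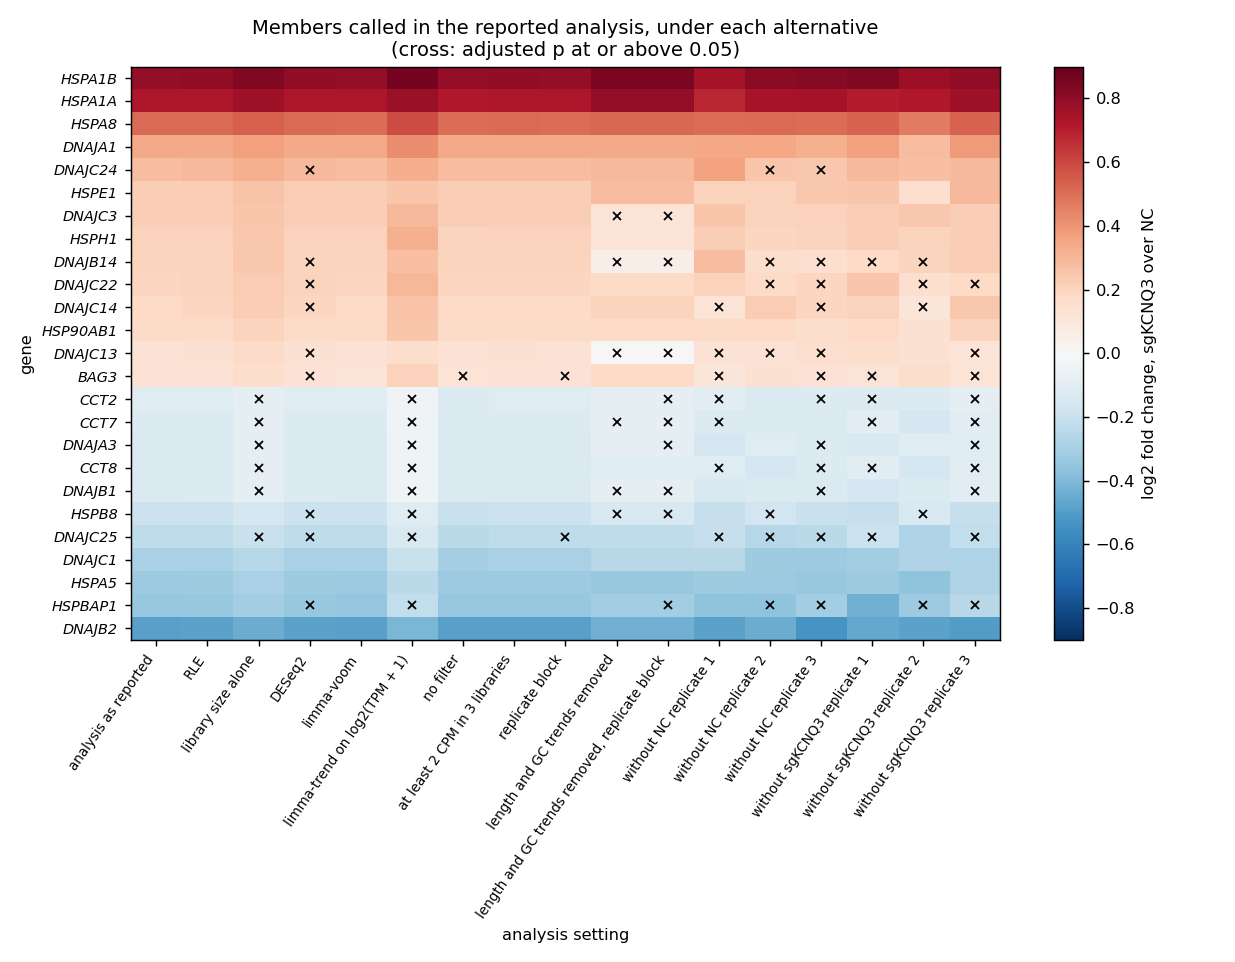
Log2 fold change (colour, sgKCNQ3 over NC) of the called chaperone genes (down the page) in the main analysis and the 16 alternatives (across), with a cross where the adjusted p was not below 0.05. Crosses are missing from the rows of the 10 genes named as stable and are frequent in those of the other 15.

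A few genes stood at the edge of detection or matched by symbol alone. The lowest log2 fold change of the set was -0.56, for DNAJC12 (edgeR adjusted p 0.156; 0.839 ± 0.127 CPM in sgKCNQ3 cells and 1.24 ± 0.256 CPM in NC cells, SD, n = 3 each), and the highest was 0.79 for HSPA1B. HSPBAP1 and HSPBP1 begin with HSPB but are not small heat shock proteins. HSPBAP1 was called lower (-0.34, adjusted p 0.0265), and was lost without NC replicate 2 (0.0519), NC replicate 3 (0.0998), sgKCNQ3 replicate 2 (0.0528) or sgKCNQ3 replicate 3 (0.146), and HSPBP1 was not called (-0.14, 0.162). The 8 genes not tested were HSPA6, HSPB2, HSPB6, DNAJB13, DNAJC5B, DNAJC25-GNG10, HSPE1-MOB4 and CCT8L2, each below 1 CPM in every library.

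Outside the set, 23 co-chaperones and linked genes were tested, of which 2 were called higher and 4 lower (median log2 fold change -0.02), a share not above the 29.1% of all tested genes. FKBP5, an HSP90 co-chaperone of steroid receptors, rose (0.27, edgeR adjusted p 2.68e-04), and the autophagy receptor gene SQSTM1 (-0.18, 2.92e-04) and STUB1 (-0.18, 0.00634), which encodes the ubiquitin ligase CHIP that acts on HSP70 clients, fell. Among 8 chaperonin helpers, prefoldin subunits went apart, with PFDN6 higher (0.24, adjusted p 0.0124) and PFDN1 lower (-0.19, 0.00120). No other helper was called, and the called share was below the 29.1% of all tested genes.

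Of 14 ER folding genes outside the set 2 were called higher and 4 lower (median log2 fold change -0.04). Over all tested genes 14.0% were called higher and 15.1% lower. SEL1L, a scaffold of ER-associated degradation, rose (0.34, edgeR adjusted p 2.20e-06), while HERPUD1 of the same pathway (-0.30, 7.71e-06) and the unfolded protein response factor XBP1 (-0.23, 1.06e-04) fell. The ER lectin chaperone CANX rose (0.14, 0.00226). Of 10 mitochondrial folding and protease genes 2 were called, both lower, with a median of -0.10. The called share was below the 29.1% of all tested genes, of which 15.1% were called lower. The 2 were GRPEL1 (-0.26, edgeR adjusted p 4.57e-05) and GRPEL2 (-0.28, 1.72e-04), the nucleotide exchange factors of HSPA9. GRPEL1 was at 153, 160.0 and 145 CPM in sgKCNQ3 cells and at 189, 180.4 and 180.3 CPM in NC cells, wholly apart, whereas HSPA9 itself overlapped between the groups.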

How the data were processed

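Poly(A)-enriched RNA of 6 RBE libraries was sequenced, 3 labelled sgKCNQ3 and 3 labelled NC, grouped by their titles. The authors deposited estimated counts (expected counts) per gene without normalization, of which 5.52% to 6.33% per library were not whole. Beside them stood the authors' TPM and FPKM values, per the file headers. Further deposited columns, which entered no test, held a signal per library and group means in those units and as a whole-number score. Per the submitters' processing notes, the genome build was GRCh38.p13. The sources used here do not give the aligner, the counter or its handling of strand and of reads with several matches.

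Rounded counts entered edgeR 4.0.16 under R 4.3.3 (TMM, filterByExpr with a minimum count of 10, robust quasi-likelihood fits, Benjamini-Hochberg adjustment over 12565 genes, threshold 0.05), after the procedure had been tested on simulated data. The biological coefficient of variation was 3.62%. An exact permutation test of 3 against 3 libraries cannot go below 0.1. TPM was summed over compartments. Alternatives were RLE or library-size scaling, DESeq2 1.42.0, limma-voom and limma-trend on log2(TPM + 1) in limma 3.58.1, no filter, the replicate number as a block, a minimum of 2 CPM in 3 libraries, length and GC trends removed (splines with 5 degrees of freedom, GENCODE release 29, 16062 genes), both together, and each library left out in turn. Promoters came from RefSeq (GRCh38.p14), and figures were drawn with matplotlib 3.10.9.

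The genes of the set and the lists were chosen with earlier results of these data known, so lists are described and not tested. Named genes are KCNQ3, the HSPA1A and HSPA1B pair, HSF1, HSF2, BAG3, the ER and mitochondrial genes of the rule, each chaperonin subunit, up to 6 called genes per direction and the 2 most abundant uncalled ones in each other class, the extremes of fold change, untested genes, and up to 4 called genes per list outside the set. HSPA6, DNAJC28, and the ratios and shares were picked after their values were seen. Some genes that this rule takes are not reported here.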

Additional observations from a re-analysis of the deposited data

How the results depend on the processing

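The summed HSPA1A and HSPA1B change was called under all 16 alternatives (log2 fold change 0.72 to 0.84), as were the 10 genes named as stable, and no called gene reversed direction (DNAJC13 came to 0.00 with length and GC trends removed), although some uncalled genes changed sign. Counts of calls were less stable. With each library left out in turn, 8 to 13 of the chaperone genes were called higher and 4 to 16 lower, with 4 lower without sgKCNQ3 replicate 3 and 16 without sgKCNQ3 replicate 2. Over all tested genes these tests called 1287 to 1710 higher and 1343 to 1761 lower, against 1763 and 1895 in the main analysis. Over these 6 tests the cytosolic genes had 6 to 7 higher and 2 to 7 lower, the chaperonin 0 to 3 lower, the ER 1 to 2 higher and 1 to 2 lower, the mitochondrial genes 0 to 1 lower, and the remaining DNAJC genes 0 to 4 higher and 0 to 3 lower. Library size alone gave 17 higher and 5 lower in all (cytosolic lower 2, chaperonin lower 0, ER higher 2, DNAJC lower 0). Log2(TPM + 1) gave 21 and 3 (cytosolic lower 1, chaperonin 1 higher and 0 lower, ER higher 2, DNAJC lower 0). The share of higher calls was thus 77.3% and 87.5%, against 56.0% in the main analysis. Over all genes it was 64.5% and 81.0%, against 48.2%. DESeq2 gave 8 and 8, with 0 higher and 0 lower DNAJC calls, and 1191 higher and 1257 lower over all genes. With length and GC trends removed there were 13 and 14 (ER 0 higher and 2 lower, DNAJC lower 3), and without a filter DNAJC had 2 lower. Over all genes, removing these trends gave 1316 higher and 2004 lower. The cause of these shifts was not tested.

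Deviations of same-numbered libraries from their group means showed little correlation (r of 0.014, -0.098 and 0.008). With so few libraries per group, this cannot tell whether the numbers mark a shared culture or batch. With the replicate number as a block, 13 were called higher and 10 lower (DNAJC lower 0), and 3136 genes in all. The block with length and GC trends removed gave 13 and 10 (cytosolic lower 2, chaperonin lower 1, ER 0 higher and 2 lower, DNAJC lower 3). On FPKM the ratios of summed levels were 1.05 (cytosolic), 1.14 (HSP70, HSP110 and HSP90), 0.974 (TRiC) and 0.865 (ER). On TPM without the most abundant gene they were 1.06 (cytosolic), 1.03 (TRiC) and 1.01 (ER), and on FPKM without it 1.02, 0.984 and 0.972 in the same order.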

Other observations

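DNAJC28, a mitochondrial J-domain gene chosen after its values were seen, had 16, 12 and 15 counts in sgKCNQ3 cells and 9, 12 and 4 counts in NC cells. Its log2 fold change of 0.75 was near that of HSPA1B, yet with an SE of 0.368 it was not called (edgeR adjusted p 0.129). It passed the threshold on log2(TPM + 1) (difference 0.41, limma adjusted p 0.0454) and was above 0 in each alternative that gave a value (0.41 to 1.09).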
